A study of Homo sapiens with 10 samples.

Results

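The Krüppel-like factors (KLF), the specificity proteins (SP) and the early growth response factors (EGR) are DNA-binding proteins with zinc fingers. Of their human genes 30, 17 KLF, 9 SP and 4 EGR, were described in a list of accessible chromatin from MDA-MB-231 cells, an established line of triple-negative breast cancer. Members were the peaks that the deposited annotation assigns to the identifier of one of these genes, which gave 123 of 161934 peaks. Identifiers were found for 27 of the 30 genes. KLF1, KLF17 and SP5 had no identifier that could be paired by position, so no peak could be counted as assigned to them.

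ATAC-seq, in which Tn5 transposase cuts open DNA, was performed on 5 ARID1A knockout and 5 control libraries, both in MDA-MB-231 cells. The ARID1A protein helps the SWI/SNF complex, which slides and evicts nucleosomes, to bind DNA. Neither the method of the knockout nor the number of clones is stated in the labels. The peak list names no sample and was taken to cover all 10 libraries together. It has 0 columns of values per library, so depth is unknown here and no knockout was compared with its control. No value below has a replicate error. A peak at a member gene shows that it was called in the list, not in which genotype.

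KLF and SP proteins bind GC boxes and CACCC sequences through a similar set of zinc fingers at their carboxyl end, so that members can compete for the same promoters. SP1 and SP3 are found in most cell types, while many KLFs rise with differentiation, hormones or stress. EGR genes are immediate-early genes: growth factors and MAP kinase signalling switch them on within minutes, partly through serum response factor (SRF) and its partners bound at CArG boxes. The NAB proteins bind EGR factors and hold back their activity.

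Promoter sequences came from RefSeq (GRCh38.p14), which held 40 annotated starts of 24 member genes, without KLF3, KLF10, SP6, SP7, SP9 and EGR3. The sequences printed are the 250 bases before a start, read 5′ to 3′ on the gene's strand. EGR1 and EGR2 are shown because these starts carried CArG boxes, marked in capitals.
EGR1, chr5:138465229-138465478, plus strand: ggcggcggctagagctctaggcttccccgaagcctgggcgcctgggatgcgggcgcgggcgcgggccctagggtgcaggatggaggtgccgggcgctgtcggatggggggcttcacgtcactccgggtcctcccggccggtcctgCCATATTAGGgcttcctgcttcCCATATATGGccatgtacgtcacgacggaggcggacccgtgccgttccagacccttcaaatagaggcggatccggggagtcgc
EGR2, chr10:62816367-62816616, minus strand: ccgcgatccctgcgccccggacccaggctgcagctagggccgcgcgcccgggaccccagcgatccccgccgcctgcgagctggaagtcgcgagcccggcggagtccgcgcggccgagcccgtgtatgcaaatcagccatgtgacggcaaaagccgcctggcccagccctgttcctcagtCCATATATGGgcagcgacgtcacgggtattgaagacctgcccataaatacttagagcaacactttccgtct
SP1 and KLF16 show the GC-rich end of the range, with GC boxes (GGGCGG on either strand) in capitals.
SP1, chr12:53380394-53380643, plus strand: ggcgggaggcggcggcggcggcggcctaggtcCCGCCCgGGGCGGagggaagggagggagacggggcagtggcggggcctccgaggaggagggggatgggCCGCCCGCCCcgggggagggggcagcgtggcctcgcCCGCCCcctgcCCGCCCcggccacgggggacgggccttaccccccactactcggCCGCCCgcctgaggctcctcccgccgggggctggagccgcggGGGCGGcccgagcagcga
KLF16, chr19:1863580-1863829, minus strand: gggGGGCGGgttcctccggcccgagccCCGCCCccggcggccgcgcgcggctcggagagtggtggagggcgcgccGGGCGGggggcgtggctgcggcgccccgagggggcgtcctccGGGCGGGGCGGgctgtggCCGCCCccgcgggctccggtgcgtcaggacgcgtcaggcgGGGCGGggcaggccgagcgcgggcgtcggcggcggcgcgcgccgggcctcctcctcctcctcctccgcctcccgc
KLF9 stands at the other end, with no GC box, no CACCC sequence and so no capitals. The KLF12 and KLF8 starts lay under peaks that the list assigns to identifiers other than those paired with these genes. KLF17 had GC boxes but no peak near the start shown. Capitals mark GC boxes and CACCC sequences on either strand in KLF12 and KLF17, and the EGR motif GCGTGGGCG in KLF8.
KLF9, chr9:70414658-70414907, minus strand: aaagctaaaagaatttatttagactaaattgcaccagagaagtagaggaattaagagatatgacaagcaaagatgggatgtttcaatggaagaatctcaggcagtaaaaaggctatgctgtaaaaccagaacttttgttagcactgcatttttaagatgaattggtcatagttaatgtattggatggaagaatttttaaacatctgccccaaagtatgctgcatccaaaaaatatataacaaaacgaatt
KLF12, chr13:74134405-74134654, minus strand: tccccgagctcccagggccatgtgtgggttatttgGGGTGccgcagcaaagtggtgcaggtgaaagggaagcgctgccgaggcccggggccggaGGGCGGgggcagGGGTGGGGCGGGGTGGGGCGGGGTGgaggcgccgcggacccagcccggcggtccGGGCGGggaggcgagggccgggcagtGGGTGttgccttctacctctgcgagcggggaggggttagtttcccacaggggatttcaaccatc
KLF8, chrX:55907873-55908122, plus strand: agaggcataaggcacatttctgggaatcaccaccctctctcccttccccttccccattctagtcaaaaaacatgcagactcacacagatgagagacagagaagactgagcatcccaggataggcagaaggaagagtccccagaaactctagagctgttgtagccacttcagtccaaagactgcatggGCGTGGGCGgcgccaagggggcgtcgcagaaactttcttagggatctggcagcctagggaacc
KLF17, chr1:44118571-44118820, plus strand: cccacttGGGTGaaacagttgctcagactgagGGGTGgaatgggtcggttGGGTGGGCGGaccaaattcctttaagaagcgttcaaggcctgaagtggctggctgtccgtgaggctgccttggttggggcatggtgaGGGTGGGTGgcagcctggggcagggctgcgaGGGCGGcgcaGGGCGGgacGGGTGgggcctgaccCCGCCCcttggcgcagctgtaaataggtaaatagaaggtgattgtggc

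Most members had a peak at a start. An assigned peak lay within 1000 bases of a listed transcript start at 24 of 30 members (80%), against 67.4% of 19974 protein-coding genes. Genes without a paired identifier count here as lacking one, and these were 10% of members and 21.1% of protein-coding genes. Over paired genes, each of which has at least 1 peak because identifiers enter the list only with a peak, the share was 24 of 27 members (88.9%), against 85.4%. By family these start peaks were found at 14 of 17 KLF genes, 6 of 9 SP genes and 4 of 4 EGR genes. A peak covered a listed start at 22 of 30 members, against 60.8% of protein-coding genes, and lay within 3000 bases of one at 26, against 72.0%. Over paired genes these shares were 81.5% of members against 77.1%, and 96.3% against 91.3%. The 6 members with no assigned start peak were KLF1, KLF12, KLF17, SP5, SP8 and SP9. Whatever gene it was assigned to, a peak lay within 1000 bases of a RefSeq start at 25 of 30 members, against 76.7% of genes, and covered a RefSeq start at 24, against 69.1%. SP5, KLF12 and SP6 changed state between the first and this count: SP5 and KLF12 had a peak at a RefSeq start only, and SP6 had one at a listed start only. Counts over genes carry no test here, since the families were chosen with earlier results of these data known.

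**Figure D1:**
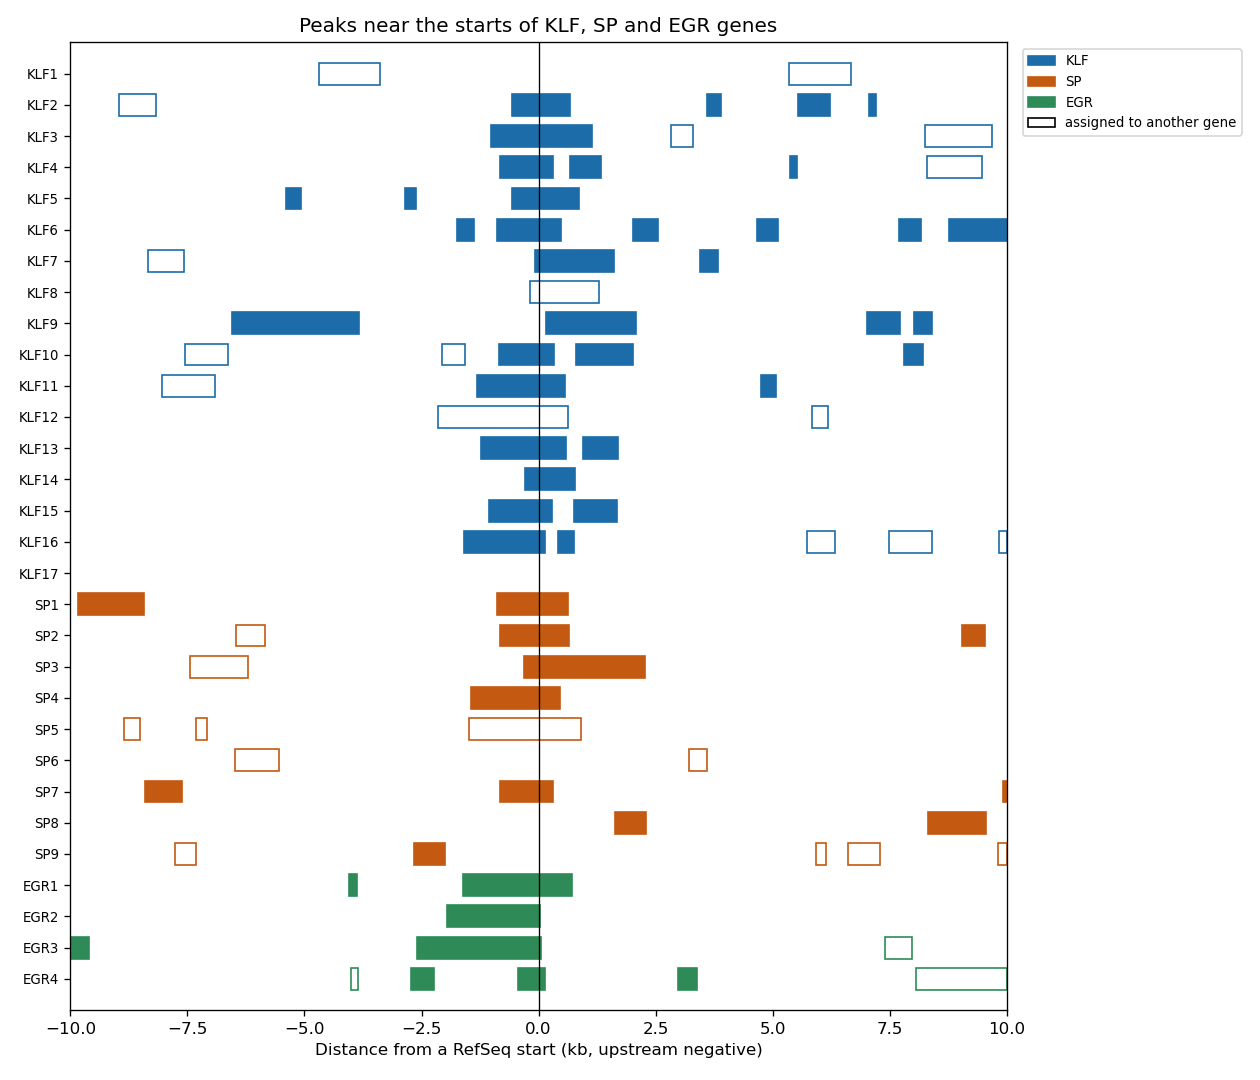
Peaks within 10 kb of a RefSeq start of each of the 30 genes, with upstream to the left. Where a gene has several starts, the one nearest to a peak was taken, or the outermost of those equally near. Filled bars are peaks assigned to the identifier paired with the gene. Open bars, labelled as assigned to another gene, are peaks assigned to any other identifier. KLF12, KLF8 and SP5 have an open bar over the start shown, and KLF17 has no peak in the window. Peaks assigned to KLF8 and KLF12 over inner starts lie outside the window.

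Among the KLF genes, start peaks were found throughout the KLF9-like group, as at most paired genes. Its 6 members, KLF9, KLF10, KLF11, KLF13, KLF14 and KLF16, bind Sin3 corepressors. All had a paired identifier, and 6 of 6 had a start peak, against 85.4% of paired protein-coding genes. The median length was 1785 bases. KLF9 is induced by glucocorticoids, KLF10 and KLF11 by TGF-beta, and KLF14 is known from fat and metabolism. The lengths were 1918 bases at KLF9, 1887 at KLF11 (10042508 to 10044394 on chromosome 2), 1827 at KLF13 (31325597 to 31327423 on chromosome 15), 1743 at KLF16, 1232 at KLF10 and 1085 at KLF14. All but KLF10 and KLF14 thus lay above the median of 1243 bases for all protein-coding genes with a start peak.

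Of the mainly activating KLFs (KLF1, KLF2, KLF4, KLF5, KLF6 and KLF7), 5 of 6 had a start peak, and KLF1 had no paired identifier. Their longest start peaks measured 1679 bases at KLF7, 1442 at KLF5, 1368 at KLF6, 1238 at KLF2 and 1145 at KLF4. KLF4 is known from pluripotency and the skin barrier, KLF5 from proliferating epithelium, and KLF2 from quiescent T cells and endothelium. These 5 lengths lay on both sides of the median of all genes. KLF1, the globin gene activator of red cell precursors, was the exception: the nearest peak in the list lay 3393 bases upstream of its start.

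The KLF5 start peak lay at an inner start. The gene has RefSeq starts at 73054976 and 73059005 on chromosome 13 (hg38). The peak of 1442 bases, 73058433 to 73059874, covered the inner start, while the nearest peak to the outer start was 312 bases long and 1053 bases away. KLF7, a neuronal factor, had 4 RefSeq starts, all under a peak. Of these, 3 shared the peak of 1679 bases at 207165642 to 207167320 on chromosome 2, and the fourth had one of 1207 bases at 207133678 to 207134884.

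The CtBP-binding repressors KLF3, KLF8 and KLF12, all paired, had 2 of 3 by the list's assignment, against 85.4% of paired protein-coding genes. Of the start peaks assigned to KLF genes, that of KLF3 was the longest, 2149 bases at 38663185 to 38665333 on chromosome 4. KLF8 had peaks of 639 and 974 bases at its inner starts on chromosome X, and a peak of 1464 bases over its outer RefSeq starts (55907951 to 55909414) was assigned to another identifier. The listed start for that peak, 55908123, was itself a RefSeq start of KLF8. By position 2 identifiers could be paired with KLF8, and the one with more matching transcripts was used.

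KLF12 had 8 assigned peaks and none within 1000 bases of a listed start. At RefSeq starts the picture differed. A peak of 2782 bases at 74133780 to 74136561 on chromosome 13 covered the starts at 74133929 and 74134404, yet the list calls it distal intergenic and assigns it to another gene. A peak of 705 bases at 74026734 to 74027438 covered the start at 74026888 and was listed as 31678 bases from a KLF12 start. The outermost RefSeq start, 74306045, had its nearest peak 18477 bases away. The KLF12 transcripts that the list names for these 8 peaks start at 73995049 and 73995056, inside of all 4 RefSeq starts.

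KLF15, a regulator of gluconeogenesis, had start peaks of 1331 and 918 bases. KLF17, a factor of early embryos and germ cells, had none: the nearest peak lay 33111 bases from its RefSeq start at 44118821 on chromosome 1. A peak at 44043660 to 44044721 covered the outermost boundary of the gene and was assigned to an identifier not paired with it.

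In the SP family, the glutamine-rich factors SP1 to SP4 had a start peak in 4 of 4, against 85.4% of paired protein-coding genes. The developmental genes SP5 to SP9, of which SP5 was not paired, had one in 2 of 5. SP3 had the longest, 2584 bases at 173963424 to 173966007 on chromosome 2, which covered its 3 RefSeq starts. SP4 had 1909 bases at 21426630 to 21428538 on chromosome 7, SP1 1522 and SP2 1480. SP4 is best known from neurons, and its peak was no shorter than those of the broadly expressed SP1 and SP2.

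SP6, known from tooth formation in mice, and SP7 (osterix), the factor of bone-forming cells, had start peaks of 1238 and 1139 bases. The SP6 peak lay at an inner listed start, 24648 bases from the outer RefSeq boundary of the gene. SP8, which acts in limb outgrowth in mice, had no start peak but a peak of 663 bases at 20784599 to 20785261 on chromosome 7, 1625 bases inside the gene. SP9 had a peak of 668 bases that ended 1980 bases upstream of its listed start. SP5, a target of WNT signalling, had no peak that could be counted as assigned. A peak of 2390 bases at 170713852 to 170716241 on chromosome 2 covered its RefSeq start and was assigned to a transcript on the opposite strand. Counted over any peak within 1000 bases of a RefSeq start, SP5 to SP9 again had 2 of 5, now SP5 and SP7.

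The EGR genes had a start peak in 4 of 4, against 85.4% of paired protein-coding genes. Theirs were the longest of the 3 families, with a median of 2154 bases. EGR3, needed for muscle spindles in mice, had 2650 bases at 22693426 to 22696075 on chromosome 8. EGR1, the immediate-early factor of growth signalling, had 2325 bases at 138463873 to 138466197 on chromosome 5. EGR2, the factor of hindbrain and myelin, had 1982 bases at 62816338 to 62818319 on chromosome 10. EGR4, needed for male fertility in mice, had 570 bases at 73293413 to 73293982 on chromosome 2, and another peak of 494 bases lay 2236 bases upstream of its start. Among the longest start peaks of 13456 protein-coding genes, EGR3 stood at percentile 98.9, EGR1 at 96.8, EGR2 at 91.2 and EGR4 at 9.04.

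**Figure D2:**
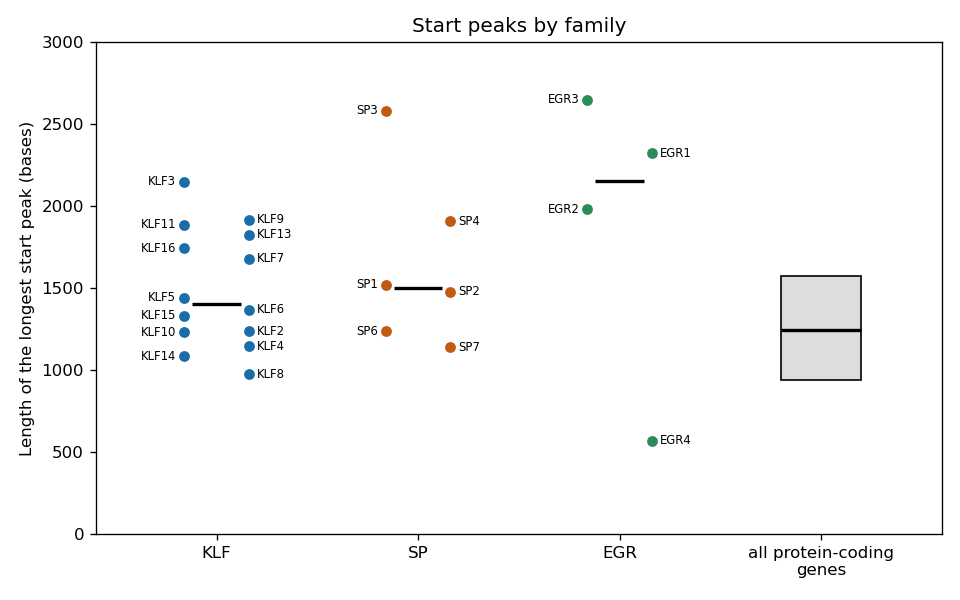
Length in bases of the longest peak within 1000 bases of a listed start, 1 point per gene, for 14 KLF, 6 SP and 4 EGR genes. Black bars are medians (1405, 1501 and 2154 bases); the grey box spans the quartiles of 13456 protein-coding genes (941 to 1572 bases) around their median of 1243. EGR4 lies below the box and EGR3, SP3, EGR1 and KLF3 above 2000 bases.

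Over all 24 members with a start peak the median length was 1501 bases, against 1243 bases for all protein-coding genes. Lengths of 1000 bases or more were reached at 22 of 24, against 70.7% of genes, and EGR4 and KLF8 were the exceptions. Lengths of 2000 bases or more were reached at 4 of 24, EGR3, SP3, EGR1 and KLF3, against 8.34% of genes. Over any peak within 1000 bases of a RefSeq start, whatever its assignment, the member median was 1679 bases, against 1264 bases for protein-coding genes. The longest was then that at KLF12, 2782 bases, and SP5 had 2390 bases. More than 1 start peak was assigned to 9 of 30 members, against 26.3% of genes, or 33.3% of both over paired genes, and 8 of these 9 were KLF genes. KLF13 had 4, and KLF6, a tumour suppressor of several cancers, and KLF7 had 3 each.

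EGR start peaks reached farther upstream than downstream of the RefSeq starts that they covered. At EGR1 the peak extended 1606 bases upstream and 718 bases downstream of the RefSeq start. At EGR2 the figures were 1953 and 28 bases at the inner start, and at EGR4 they were 434 and 135 bases. At EGR3, whose start was taken from the gene boundary, they were 2595 and 54 bases. The other EGR2 starts, 62818775 and 62819167, were not covered. They lay 456 and 848 bases beyond the upstream end of the peak, so that the peak was downstream of both. Among the covered member starts with a promoter sequence, 21 of 32 had the longer arm upstream, against 47.2% of 14225 covered starts of protein-coding genes. The covered gene boundaries of KLF3, KLF10, SP7 and EGR3 are not in this count. KLF8 went the other way at each of its 4 starts, with 1291 bases downstream and 172 upstream at the outermost. Starts of 1 gene can share a peak, as at KLF7 and SP3, and are not independent.

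KLF9 differed in shape. Its start peak, 70412573 to 70414490 on chromosome 9, ended 167 bases inside the gene and did not reach the RefSeq start. A peak of 2705 bases, the longest flanking peak of the 30 genes, lay 3843 bases upstream of that start at 70418500 to 70421204. The window from 250 bases before to 50 bases after the KLF9 start, most of it printed above, held 32.7% G and C, the lowest value of the 40 starts.

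Covered starts had the richer promoters, among members as among all genes. The 40 RefSeq starts had a median GC content of 66.5%, against 62.3% for 22132 starts of protein-coding genes, in windows of 300 bases from 250 before to 50 after the start. Peaks covered 32 of the 40, against 64.3% of all starts, and lay within 1000 bases of 35, against 73.4%. Median GC content was 69.2% at covered and 55.8% at uncovered member starts, and 65.7% and 53.3% over all genes. The ratio of observed to expected CpG was 0.833 at covered and 0.368 at uncovered member starts, against 0.832 and 0.321 over all genes. Within each state the member medians lay above those of all genes, and only the CpG ratio at covered starts was nearly equal.

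**Figure D3:**
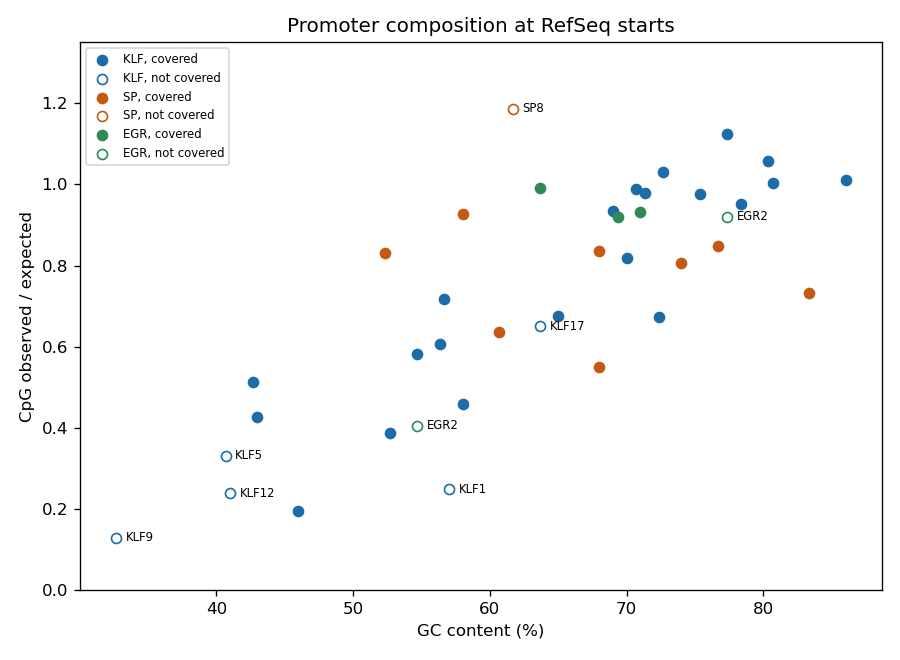
GC content in percent (horizontal) and the ratio of observed to expected CpG (vertical) in the 300-base window at 40 RefSeq starts of 24 member genes. Filled points are starts covered by a peak and open points, labelled by gene, are the 8 that were not covered. SP8, KLF17 and an EGR2 start are uncovered although their GC content is above 60%, and KLF9 has the lowest GC content.

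Uncovered starts with rich promoters were few. SP8 had a GC content of 61.7% and the highest CpG ratio of the 40 starts, 1.19, with no peak over its start. KLF17 had 63.7% and 0.65, with 4 GC boxes and 6 CACCC sequences. EGR2 had a start of 77.3% GC, 456 bases beyond the end of its start peak. Conversely, the KLF12 start at 74026888 was covered with 46.0% GC, and the KLF7 starts at 207134137 and 207167246 with 43.0% and 42.7%.

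The motifs that KLF and SP proteins bind were common in promoters overall. GC boxes were present at 28 of 40 member starts, against 56.3% of all promoters, with 10 matches at the inner SP1 start and 7 each at KLF16 and the inner KLF11 start. At covered starts the shares were 75% for members and 70.7% for all, and at uncovered starts 50% and 30.4%. All 9 SP starts, which belong to 6 genes, held one. CACCC (either strand) was found at 22 of 40 starts, against 63.4%. GCGTGGGCG was found at 2 of 40, against 1.04%, and both were windows of KLF8 that overlap and share 1 match, 55 to 63 bases before the outer start. Overlapping matches were counted separately, and GC boxes and CACCC sequences may overlap.

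CArG boxes were found at 3 of 40 member starts, against 1.25% of all promoters, and 2 of these 3 were EGR starts. They were EGR1, the inner EGR2 start and the KLF7 start at 207167246. EGR1 held 2, from 105 to 96 and from 83 to 74 bases before its start, and EGR2 held 1, from 71 to 62 bases before its inner start. All 3 EGR copies lay inside the start peaks and are in capitals in the sequences above. EGR4 had none in this window. The other motifs were rarer. The CRE TGACGTCA, bound by CREB, was found at 1 of 40 starts, that of KLF11 at 10044221, against 2.26% of all promoters. TGANTCA, the AP-1 sequence, was found at 1, the KLF12 start at 74026888, against 6.15%, and TATAAA at 1, the uncovered outer KLF5 start, against 9.46%. A match shows letters, and binding was not measured.

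Flanking peaks, more than 3000 bases from a listed start, were unevenly shared. They numbered 76 over 21 of 30 members, against 55.7% of protein-coding genes with at least 1. Over paired genes 77.8% of members had one, against 70.7%, and the median gene with assigned peaks held 1, against 2 over all genes. KLF9 and KLF13 held 12 each, EGR2 10, KLF12 8, and KLF6 and SP3 5 each. KLF3, KLF8, KLF16, SP4, SP6 and SP9 had assigned peaks but no flanking one. Of the peaks assigned to members 47 (38.2%) were annotated as promoter, 41 (33.3%) as distal intergenic and 28 (22.8%) as intron, against 30.4%, 29.6% and 34.1% of the whole list.

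**Figure D4:**
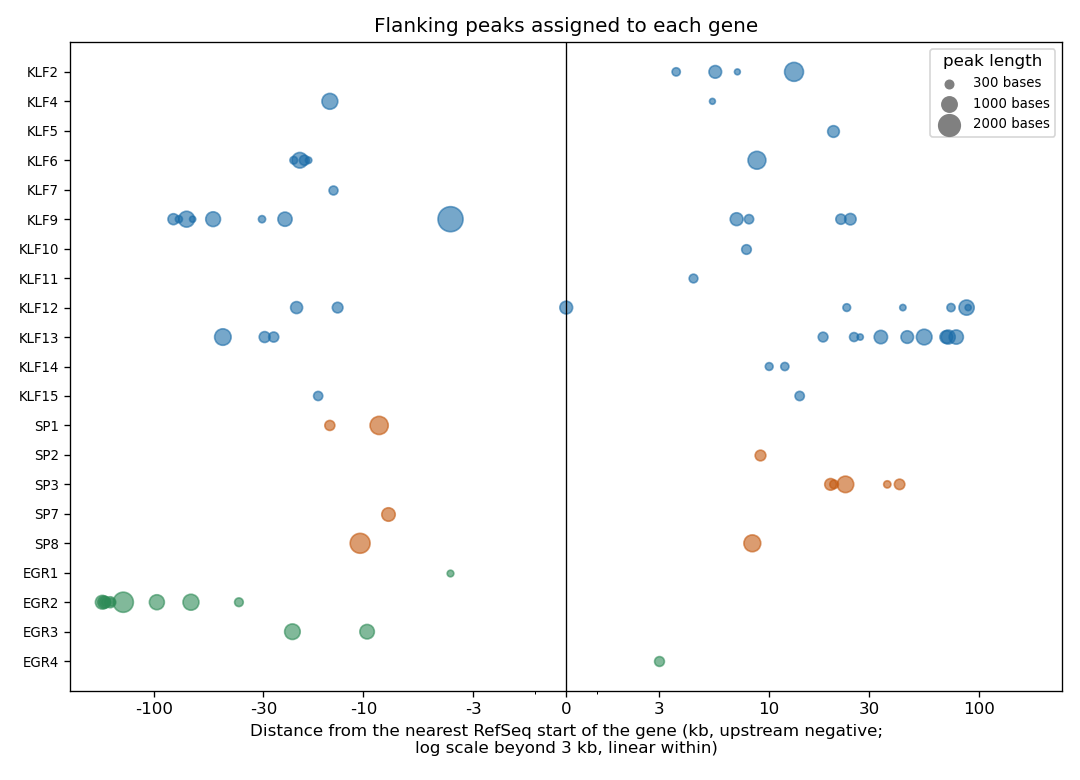
Flanking peaks assigned to each of 21 member genes, by distance in kb from the nearest RefSeq start (upstream negative, log scale beyond 3 kb). Point area follows peak length. Those of EGR2 lie upstream between 39 and 176 kb, and KLF9 and KLF13 have peaks on both sides.

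Of 14 EGR flanking peaks 13 lay upstream of the nearest RefSeq start, against 30.2% of the flanking peaks of protein-coding genes, and 10 of the 13 belonged to EGR2. By the list's own distances 11 of 14 were upstream, against 47.0%. Without EGR2 it was 3 of 4 either way. The EGR genes are short, from 2620 bases (EGR4) to 7172 bases (EGR2), which leaves little room inside them for flanking peaks. The shares over all genes were not matched for gene length, and its part in the contrast was not tested. The EGR2 peaks lay from 39282 to 176326 bases upstream of its RefSeq starts, and the longest measured 1753 bases at 62959112 to 62960864. For all but the nearest the list counts from a long EGR2 transcript that starts at 62919900, and 3 of the 10 lie in its introns. EGR3 had 2, of 906 and 1047 bases, 9610 and 21827 bases upstream. EGR1 had 1 of 190 bases 3869 bases upstream, and EGR4 had 1 of 414 bases just past its end.

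Counted from the nearest RefSeq start, 20 flanking peaks of the KLF family lay upstream and 30 downstream. The remaining 1 was the KLF12 peak over a RefSeq start. KLF9 had 8 upstream, reaching 80645 bases, and 4 in its intron. KLF13, an activator of the chemokine gene CCL5 in T cells, had 9 downstream, within the gene, and 3 upstream. Of its 16 assigned peaks, 1 of 1573 bases at 31391675 to 31393247 on chromosome 15 covered an inner listed start 64840 bases into the gene. KLF6 had a cluster of 4 peaks from 18278 to 21518 bases upstream and a peak of 1375 bases over its 3′ end. KLF12 had 5 downstream and 2 upstream beside the peak over its start, of at most 995 bases and reaching 89178 bases. These upstream peaks of KLF12, and that of KLF7, lay before an inner start but inside the gene. KLF2 had 4, all downstream, the farthest 13168 bases away and 1543 bases long.

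SP genes held 11 flanking peaks. SP3 had 5, all inside the gene, of 225 to 1174 bases. SP8 had 1226 bases 8327 bases downstream of its start and 1708 bases 10375 bases upstream, so that each of its flanking peaks was longer than the peak inside the gene. SP1 had peaks of 1427 and 434 bases, 8419 and 14472 bases upstream. SP4 had none assigned.

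Length set apart some flanking peaks. The 76 had a median length of 515.5 bases, against 502 bases for 50374 flanking peaks of protein-coding genes. Of the 76, 15 (19.7%) were 1000 bases or longer, against 11.2% over all genes. They belonged to KLF9, KLF13, KLF6, EGR2 and SP8 (2 each) and to KLF2, KLF4, SP1, SP3 and EGR3 (1 each).

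Peaks at a gene need not be assigned to it. Within the 27 paired members or 3000 bases of them lay 133 peaks, of which 49 (36.8%) were assigned to another gene, against 31.6% over 15752 paired protein-coding genes. Without KLF12 the share was 33 of 109 (30.3%). Assignment elsewhere was found for 16 of 24 at KLF12, 6 of 7 at KLF3 and 4 of 6 at KLF16, and for none at KLF9, KLF6 and KLF5. At KLF3, 3 of those peaks lay in its intron. Counted instead over any peak from 3000 to 50000 bases from the outermost start, the median member had 8, as had the median protein-coding gene. KLF6 then had the most, 21, and KLF8 and SP4 had 0.

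Most genes that act with these factors had a start peak. Of 26 partner genes, which were also chosen with earlier results known, 22 had an assigned start peak (84.6%), against the same 67.4%, or 95.7% against 85.4% over paired genes. The longest were at CTBP1 (2523 bases), a corepressor of KLF3, KLF8 and KLF12, at MEF2C (2371 bases) and at MEF2A (2339 bases). MEF2 factors carry the ERK5 signal to KLF2 and KLF4. NAB1, HDAC2, RB1, none with a paired identifier, and MAPK7 had none by assignment. Any peak within 1000 bases of a RefSeq start was found at NAB1 (2062 bases), HDAC2 (1662 bases) and MAPK7 (1140 bases), the gene of ERK5. RB1 had a peak only at its outermost boundary. SRF, which binds CArG boxes, had a start peak of 1166 bases, and its partners ELK1 and ELK4 had 1153 and 1517 bases.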

How the data were processed

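ATAC-seq peaks came from 1 list, deposited with the series of 5 ARID1A knockout and 5 control libraries. Reads were processed with Bowtie2 2.3.5.1 and MACS2 2.2.6 on hg38, per the submitters' processing notes. How strictly peaks were called, how libraries were merged and which annotation was used is not given in the sources used here. Peak number and edges depend on such choices. The 17 columns give positions, lengths and distances in bases, per the file headers. Where a peak is missing, this list holds none.

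Gene symbols came from RefSeq tables (GRCh38.p14). An identifier was paired with a gene where a listed transcript began or ended within 500 bases of a RefSeq start or end of the gene on the same strand, with the most matching transcripts and then the larger overlap, each the other's best. This paired 15752 of 19974 protein-coding genes (78.9%). The 4222 unpaired genes count as lacking a start peak, although 1363 have a peak at a RefSeq start, so shares by assignment are lowered, more for all genes (21.1% unpaired) than for members (10%). Shares over paired genes stand beside them. Shares at RefSeq starts and boundaries use the 18872 genes whose strand was known. The planned results were descriptions, and no p-value was computed. All members were named, with full values for those without a start peak, those with the longest start or most flanking peaks, and the EGR genes. Of the partners, those with the 3 longest and those without a start peak were named, and SRF, ELK1 and ELK4 were added after their values were seen. Members and lists were chosen with earlier results of these data known. Finding peaks near a position was tested on simulated data. Python 3.11.15, numpy 2.4.6 and pandas 2.3.3 were used.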

Additional observations from a re-analysis of the deposited data

How the results depend on the processing

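No paired analysis was possible because knockout and control libraries have no values of their own in the list, and for the same reason leaving out each library was not run. Of 52 recomputed values, 41 stayed within 1.5 times the reported one. Start peak counts and lengths were all among these: members with a start peak numbered 22 to 26 against 24 as reported. Counts of flanking peaks moved, by construction of the settings, except the EGR count beyond 10000 bases, which was 10 against 14. Beyond 10000 bases they were 49 over all members, 33 for KLF and 6 for SP. Among peaks of at least the list's median length (539 bases) they were 35, 22 for KLF, 6 for SP and 7 for EGR. Over any peak from 3000 to 50000 bases of the outermost start they were 230, 140 for KLF, 62 for SP and 28 for EGR. Reported counts were 76, 51, 11 and 14. Peaks at RefSeq starts, shares over paired genes, values without EGR2 or KLF12, and the alternatives for the partner genes, were chosen after seeing the data.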
